A study of Bos taurus with 18 samples.

Results

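The response of 16-month cultures of bovine dermal fibroblasts to 8 h of lipopolysaccharide (LPS) was described from 6 of the 18 libraries of the series. The members were chosen by label: the 3 libraries of cultures from animals sampled at 16 months and collected at hour 8 post-LPS, and the 3 libraries of the same cultures at hour 0. Dermal fibroblasts are the collagen-producing cells of the skin, grown here from biopsies of Holstein heifers. Each heifer gave a culture at 5 months and another at 16 months of age, and all cultures received LPS at 100 ng/ml in medium with fetal bovine serum, insulin, transferrin, selenium and antibiotics. Poly-A RNA of every culture was sequenced at 0, 2 and 8 h.

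No agent other than LPS distinguished the groups, and no genetic change was made in any of them. The study picked animals whose cultures had responded to LPS at a middle level in an earlier collection, and used cells frozen at the fifth passage. Lysates of a pair of wells were pooled for each library, so that a library stands for a culture of 1 animal. Since no LPS-free culture at hour 8 was analysed here, a change from hour 0 to hour 8 holds the effect of LPS and of the hours in the plate together, and the contributions cannot be told apart.

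LPS is a component of the outer membrane of gram-negative bacteria. It is bound by the receptor TLR4 with its partner MD-2 (gene LY96) and the co-receptor CD14. From TLR4, an arm through the adaptor MYD88 releases the transcription factor NF-kB, which drives chemokine and cytokine genes and also genes that shut the pathway off. Another arm through the adaptor TRIF (gene TICAM1) activates interferon regulatory factors, and interferon made by the cells then switches on antiviral genes through factors such as STAT2 and IRF9. Fibroblasts carry this pathway and release chemokines that call neutrophils and monocytes into infected tissue.

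Gene-window counts of the 6 libraries ran from 66955034 to 94994892. Values are given as CPM, the counts of a window for every 1000000 gene-window counts of its library, in the order of animals 1, 2 and 3, and CPM is not scaled by gene length, so that levels are compared between libraries and not between genes. All 11 fibroblast markers were above 1 CPM at both hours, with a sum of 84860 to 89090 CPM at hour 0 and 74150 to 98970 CPM at hour 8. The summed macrophage markers were at 11.5 to 36.8 CPM before and 11.3 to 31.8 CPM after LPS with C1QA and TYROBP at 0, and lymphocyte markers stayed at 0.0394 to 0.322 CPM. Endothelial markers came to 2.57 to 4.15 CPM and keratinocyte markers to 1.23 to 3.05 CPM over the 6 libraries, with KRT1 and EPCAM at 0. Pericyte and smooth muscle markers came to 161 to 213 CPM, adipocyte markers to 7.42 to 21.0 CPM and melanocyte and Schwann cell markers to 14.0 to 17.7 CPM. No tested member of any marker list was called as changed.

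Of 12972 genes tested, 437 were called in 16-month cultures at hour 8, which is 3.37% of those tested. A gene was called when its p from the quasi-likelihood test of edgeR, adjusted over all tested genes by the Benjamini-Hochberg method, was under 0.05 and it changed by at least 2-fold. The test was fitted over the hour 0 and hour 8 libraries of both ages with each culture as a block, so that each culture was compared with itself. Of the called genes, 279 rose (2.15% of genes tested) and 158 fell (1.22%). The counts of list members given in the paragraphs on gene lists stand against these shares. These are values of whole cultures, in which fewer cells making a transcript and less of it per cell cannot be told apart. In 435 of the 437 the 3 animals moved in the same direction. The rises were larger than the falls: 64 genes rose by at least 4-fold and 29 of these by at least 8-fold, while 10 genes fell by at least 4-fold and 1 by at least 8-fold. Smaller shifts were widespread, since 6891 genes (53.1%) passed the adjusted p without a minimum fold change, 3404 upward (26.2%) and 3487 downward (26.9%), and the median change of all tested genes was -0.01 on the log2 scale.

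**Figure D1:**
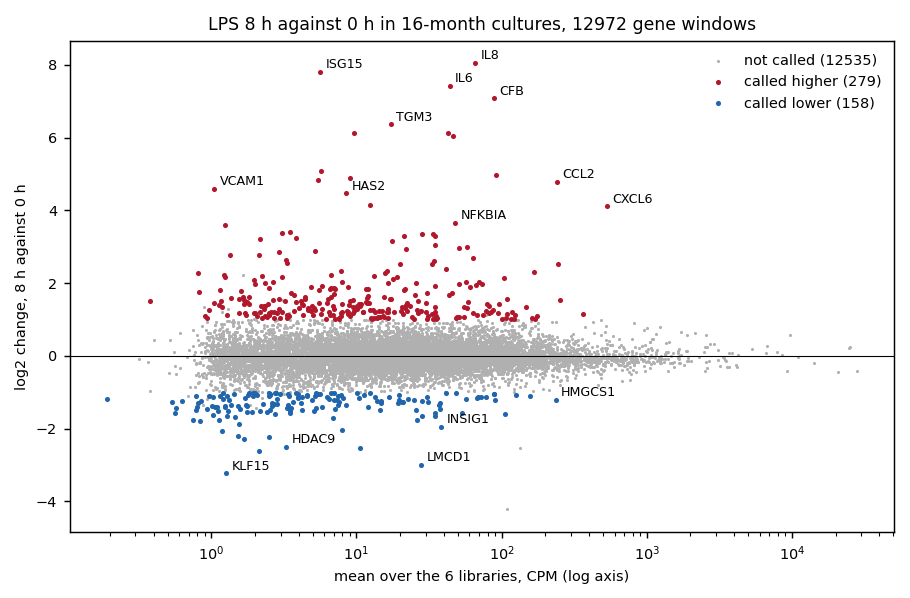
Log2 change from hour 0 to hour 8 in 16-month cultures (vertical axis) against the mean over the 6 libraries in CPM (horizontal, log axis) for each of the 12972 tested gene windows. Red points are the 279 genes called higher, blue points the 158 called lower and grey points the 12535 not called. Red points reach a log2 change of 8.05 at IL8, and no blue point lies below -3.23, the value of KLF15.

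Receptor and adaptor genes of the LPS pathway were nearly level. Of the 16 tested genes of LPS recognition, 1 was called, against 3.37% of all genes, and the median log2 change of the list was 0.04. TLR4, the LPS receptor itself, was at 4.71, 1.85 and 2.46 CPM at hour 0 and 4.62, 1.83 and 2.81 CPM at hour 8. The groups overlapped, and the log2 change was 0.05 ± 0.12 (SE, adjusted p = 0.743). Its partner LY96 was at 18, 16.4 and 16.5 CPM before and 13.4, 14.1 and 12.3 CPM after, a log2 change of -0.35 ± 0.05 that passed the adjusted p and not the 2-fold minimum. The adaptor genes MYD88 and TICAM1 changed by -0.04 and 0.07 on the log2 scale and did not pass. The co-receptor CD14 lay under the filter on low counts, with 1.28, 1.04 and 0.941 CPM at hour 0 and 2.2, 0.855 and 1.94 CPM at hour 8.

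TLR2, the receptor for bacterial lipoproteins, was the member called. It was at 1.23, 0.446 and 0.477 CPM before LPS and 7.86, 2.58 and 4.82 CPM after. All hour 8 libraries lay above all hour 0 libraries, and the log2 change was 2.84 ± 0.18 (adjusted p = 2.12e-05).

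Of 21 tested genes of NF-kB subunits and feedback 11 rose and none fell, against 2.15% of all genes that rose, and the median log2 change was 1.13. NFKBIA encodes the inhibitor that holds NF-kB in the cytoplasm and is itself an NF-kB target. It went from 7.37, 6.58 and 6.82 CPM to 107, 66.6 and 91.5 CPM, a log2 change of 3.66 ± 0.11 (adjusted p = 1.23e-06). TNFAIP3, the ubiquitin-editing enzyme A20 that dampens the pathway, went from 0.311, 0.433 and 1.07 CPM to 24.3, 10.7 and 17.2 CPM (4.88 ± 0.42 on the log2 scale, adjusted p = 6.67e-05). For both genes the hour 8 groups lay clear of the hour 0 groups, and animal 2 had the lowest hour 8 value.

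Further members of the list were among the called genes. BIRC3, a ubiquitin ligase of the TNF receptor complex, rose by 2.38 ± 0.13 on the log2 scale, TNIP1, a partner of A20, by 2.32 ± 0.14 and NFKBIZ, a nuclear member of the inhibitor family, by 2.32 ± 0.19. The subunit genes NFKB1, NFKB2 and RELB rose by 1.18, 1.25 and 1.56. The subunit RELA, at 75.7, 65.5 and 78 CPM before and 83.1, 75.6 and 75.2 CPM after, changed by 0.10 ± 0.05 and was not called. ZC3H12A, which encodes a nuclease that degrades cytokine transcripts, rose by 1.40, the kinase gene MAP3K8 by 1.60 and IER3 by 1.13, and the IER3 window lies inside the long BOLA window. BCL3, also of this list, was at 23.8, 26.4 and 23.7 CPM and 34, 23.8 and 28.8 CPM, and its groups overlapped.

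Chemokine genes held several of the largest rises. Of 22 genes listed, 7 could be tested, 11 lay under the filter and 4 had no window in the files. Of the 7 tested, 5 rose, against 2.15% of all genes, and the median log2 change of the 7 was 4.79. IL8 (chromosome 6, 90559882 to 90563647, UMD 3.1) encodes the main neutrophil attractant and was at 0.288, 0.131 and 1.13 CPM at hour 0. At hour 8 it was at 157, 98.9 and 137 CPM in animals 1, 2 and 3. The spread between animals at hour 8 was small beside the change, which was 8.05 ± 0.32 on the log2 scale (adjusted p = 5.39e-06).

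The neighbouring neutrophil chemokine gene CXCL6 (chromosome 6, 90645964 to 90648082) went from 63.1, 38.1 and 68.3 CPM to 1393, 568 and 1063 CPM, and its log2 change was 4.11 ± 0.19. CXCL2, in the same cluster, went from 7.3, 3.19 and 6.59 CPM to 240.2, 95.7 and 199 CPM, a log2 change of 4.97 ± 0.19. Its window of chromosome 6, 90695494 to 90824841 overlaps that of LOC100847175 and also a stretch counted as lying between genes, so its reads cannot be assigned to CXCL2 with certainty. CCL2, which attracts monocytes, stood at 18.2, 11.9 and 19.5 CPM before and 577, 284 and 534 CPM after LPS, a log2 change of 4.79 ± 0.10 (adjusted p = 1.97e-07). CCL5, which attracts T cells and monocytes, went from 2.01, 0.315 and 1.97 CPM to 136, 45.9 and 91.1 CPM, a log2 change of 6.05 ± 0.32. In all 5 genes animal 1 had the highest and animal 2 the lowest value at hour 8, and animal 2 was also the lowest at hour 0.

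The chemokines CXCL12 and CXCL16 behaved otherwise. CXCL12, which is made constitutively by stromal cells, was at 125, 41.8 and 124 CPM and 103, 42.8 and 109 CPM, a log2 change of -0.15 ± 0.07 that did not pass. CXCL16 changed by 0.70 ± 0.06, past the adjusted p and under 2-fold.

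Among 18 tested cytokine and growth factor genes, 3 rose and 1 fell, against 2.15% and 1.22% of all genes, and the median log2 change was 0.11. A single fall among 18 is too few to set the list apart. IL6, the cytokine that drives the acute phase response of the liver, was at 0.355, 1.01 and 0.18 CPM before LPS and 123, 61.2 and 78.3 CPM after. Its log2 change was 7.42 ± 0.47 (adjusted p = 2.13e-05). LIF, a relative of IL6, went from 0.765, 1.21 and 1.41 CPM to 3.49, 6.06 and 5.42 CPM (2.15 ± 0.16). INHBA, which encodes the activin A subunit, went from 12.4, 20.5 and 13 CPM to 22.9, 46.6 and 28.8 CPM (1.08 ± 0.05). For IL6 and LIF the groups were well apart, and for INHBA the lowest hour 8 value lay close above the highest hour 0 value.

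HBEGF, an EGF receptor ligand, was at 0.61, 1.06 and 0.606 CPM and 0.474, 0.183 and 0.269 CPM, and its log2 change was -1.27 ± 0.37 (adjusted p = 0.0216). Without animal 2 of the 16-month cultures the adjusted p was 0.0818 and the log2 change -0.68, and without animal 3 the adjusted p was 0.0673. FGF7, a growth factor for keratinocytes, changed by 0.99 ± 0.06 and stood just under 2-fold, and TGFB2 changed by -0.86 ± 0.08. TNF had few reads at both hours, with 0.0333, 0.0131 and 0.0129 CPM at hour 0 and 0.0632, 0.0244 and 0.0149 CPM at hour 8, while at hour 2 it was at 14.9, 4.58 and 9.35 CPM.

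**Figure D2:**
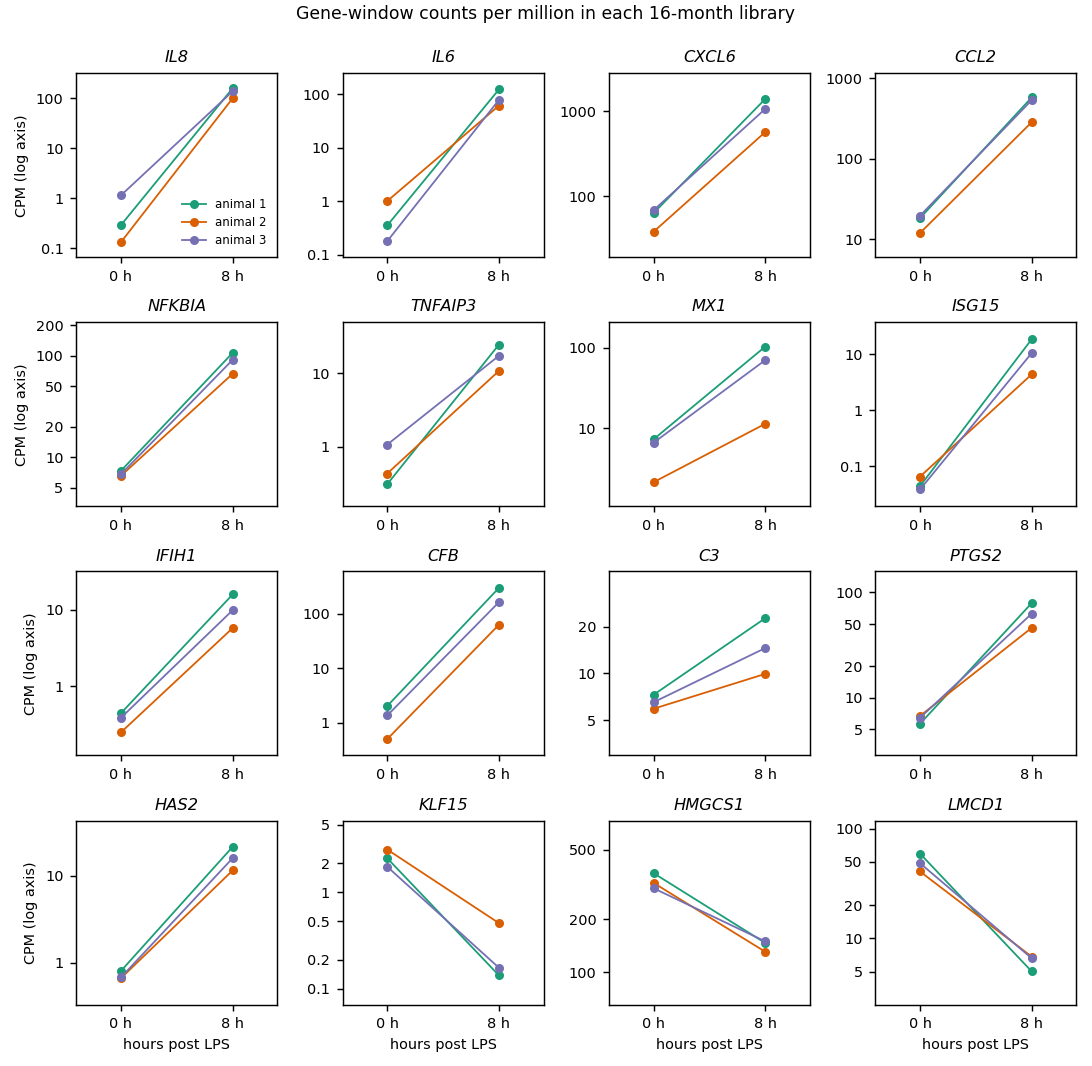
CPM on log axes at hour 0 and hour 8 for 16 genes in the 16-month libraries, with a line and a colour for each of the 3 animals. IL8 climbs from at most 1.13 to at least 98.9 CPM, animal 2 ends lowest for the immune genes of the upper 3 rows, and KLF15, HMGCS1 and LMCD1 descend in every animal.

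Sensors and regulators of the interferon response rose in part. Of 25 tested genes of interferon induction and signalling 7 rose and 1 fell, and the median log2 change was 0.28. IFIH1, the cytoplasmic RNA sensor MDA5, was at 0.444, 0.249 and 0.387 CPM before and 15.7, 5.73 and 9.81 CPM after LPS, a log2 change of 4.83 ± 0.21 (adjusted p = 7.04e-06). The related sensor genes DHX58 (LGP2) and DDX58 (RIG-I) rose by 1.85 ± 0.20 and 1.45 ± 0.11. IRF1, a transcription factor of interferon-responsive genes, went from 10.6, 9.45 and 9.69 CPM to 55.3, 26.2 and 42 CPM (2.00 ± 0.16), in a window that overlaps LOC100848038. The DNA sensor MB21D1 (cGAS) rose by 1.24, the receptor chain IFNAR2 by 1.20 and USP18, which removes ISG15 from proteins, by 1.42.

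TMEM173 encodes STING, the adaptor that acts after cGAS. It was at 5.65, 4.32 and 5.53 CPM at hour 0 and 2.52, 2.21 and 1.11 CPM at hour 8, and it fell with a log2 change of -1.43 ± 0.23 (adjusted p = 0.00128). The factors that carry the interferon signal changed less: STAT2 by 0.13, IRF9 by 0.90 and IRF7 by 0.98, all past the adjusted p and under 2-fold. The interferon gene IFNB1 was under the filter, at 0.0333, 0.446 and 0.0516 CPM and 0.0632, 0.403 and 0.0896 CPM, and its values overlapped between the hours.

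Of 37 tested interferon-stimulated effector genes 13 rose and none fell, against 2.15% of all genes that rose. A further 19 were higher past the adjusted p at under 2-fold, where 26.2% of all genes were higher past it at any fold, and the median log2 change was 0.77. ISG15, a ubiquitin-like protein attached to other proteins in infected cells, was at 0.0444, 0.0656 and 0.0387 CPM at hour 0. At hour 8 it was at 18.7, 4.4 and 10.6 CPM, a log2 change of 7.80 ± 0.38 (adjusted p = 9.63e-06). OAS1, which makes the second messenger that activates RNase L, went from 1.8, 0.459 and 1.43 CPM to 129, 40.7 and 80.8 CPM, a log2 change of 6.11 ± 0.23. The OAS1 window overlaps that of OAS2, so that the 2 genes cannot be separated fully.

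MX1, a GTPase that blocks virus replication, was at 7.28, 2.13 and 6.6 CPM before and 104, 11.4 and 70.4 CPM after LPS. BST2 (tetherin), which holds virus particles at the cell surface, was at 5.79, 4.17 and 4.29 CPM and 80.7, 24.9 and 50.9 CPM. Their log2 changes were 3.35 ± 0.24 and 3.35 ± 0.24 (adjusted p = 3.48e-05 and 3.48e-05). In both genes the groups were apart, and animal 2 reached a much lower level than animals 1 and 3. CMPK2, a mitochondrial nucleotide kinase, changed by 3.38 ± 0.22, and IFI27 by 2.88 ± 0.24.

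Other called members ran from a log2 change of 1.09 for PARP9 to 2.19 for EPSTI1, and PARP9 shares part of its window with its called neighbour DTX3L. Smaller changes were seen in other members. IFIT1, an antiviral RNA-binding protein, was at 104, 88.5 and 92.1 CPM and 185, 98.4 and 142 CPM (log2 change 0.54 ± 0.12), and PARP14 changed by 0.57 ± 0.11. LGALS3BP, at 113, 105 and 121 CPM and 120.4, 110.2 and 109 CPM, overlapped between the hours with a log2 change of 0.01 ± 0.06.

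Of 16 tested genes of antigen processing 4 rose, against 2.15% of all genes, and the median log2 change was 0.64. A further 11 were higher past the adjusted p at under 2-fold, where 26.2% of all genes were higher past it at any fold. CD40, a costimulatory receptor of the TNF receptor family, went from 5.2, 4.95 and 4.89 CPM to 54.2, 27.3 and 36.2 CPM (2.93 ± 0.17, adjusted p = 1.75e-05). The immunoproteasome subunit genes PSMB9 and PSMB8 rose by 1.78 ± 0.39 and 1.37 ± 0.11, and the peptide transporter gene TAP1 by 1.26 ± 0.15. B2M, the light chain of MHC class I, was at 409, 342 and 398 CPM and 467, 356 and 438 CPM and changed by 0.13 ± 0.05.

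Of 13 tested complement and acute phase genes 3 rose, against 2.15% of all genes, and 19 of the 32 listed lay under the filter. At under 2-fold 2 more were higher and 3 lower past the adjusted p, where 53.1% of all genes passed it at any fold. The median log2 change was 0.10. CFB, the protease of the alternative complement pathway, was at 2.02, 0.499 and 1.35 CPM at hour 0 and 299, 62.9 and 163 CPM at hour 8. Its log2 change was 7.08 ± 0.12 (adjusted p = 1.53e-07), and animal 2 was lowest at both hours, so that the animals differed more in level than in fold. C3, the central complement component, went from 7.29, 5.92 and 6.52 CPM to 22.7, 9.93 and 14.6 CPM, a log2 change of 1.20 ± 0.16. Without animal 1 the change of C3 was 0.94 on the log2 scale, under 2-fold.

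PTX3, a soluble pattern recognition molecule, went from 0.699, 0.131 and 0.219 CPM to 15.6, 6.87 and 10.9 CPM (5.08 ± 0.26), in a window that overlaps VEPH1. The complement regulators CD46 and CD59 changed by 0.10 and -0.28 on the log2 scale and were not called. SAA3, a serum amyloid A gene induced by bacterial products, had 0 reads in the 3 hour 0 libraries and 12.5, 2.27 and 4.48 CPM at hour 8. Against 3 reads over the hour 0 group this is at least 557-fold higher, and without animal 1 at least 167-fold. It lay under the filter of the fit over both ages.

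Of 22 tested genes of prostanoid, oxidant and tryptophan enzymes 6 rose and none fell, with a median log2 change of 0.39. PLA2G4A, the phospholipase that frees arachidonic acid, went from 28.9, 25.6 and 26.4 CPM to 135, 86.9 and 113 CPM (2.03 ± 0.10). PTGS1, the cyclooxygenase usually described as constitutive, went from 12.7, 9.08 and 16.6 CPM to 132, 65.5 and 111 CPM (3.00 ± 0.13, adjusted p = 7.04e-06). PTGS2, the inducible cyclooxygenase, went from 5.66, 6.71 and 6.45 CPM to 79.3, 46.2 and 63 CPM (3.30 ± 0.18), in a window that overlaps LOC100138376.

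Both cyclooxygenases stood clear of their hour 0 groups in all animals. SOD2, the mitochondrial superoxide dismutase and an NF-kB target, went from 5.05, 4.83 and 5.27 CPM to 41.2, 15.8 and 21.7 CPM (2.28 ± 0.24). The metallothionein gene MT2A rose by 2.11 ± 0.16 and the zinc importer gene SLC39A14 by 1.36. The cytosolic SOD1 changed by -0.31 ± 0.04 and PTGES3, a prostaglandin E synthase, by 0.16 ± 0.04, and neither was called. NOS2 and IDO1, the enzymes of nitric oxide and kynurenine synthesis, lay under the filter, with NOS2 at 3.43, 0.611 and 0.0896 CPM and IDO1 at 0.368, 0.134 and 0.179 CPM at hour 8.

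Adhesion and coagulation genes gave 5 rises among 22 tested, with a median log2 change of 0.29. VCAM1, the endothelial and stromal receptor for lymphocytes, went from 0.0776, 0.105 and 0.0645 CPM to 3.18, 1.58 and 1.3 CPM (4.59 ± 0.36). ICAM1, its relative, was at 28.1, 25.8 and 28.4 CPM and 28.5, 29.1 and 27.6 CPM, a log2 change of 0.05 ± 0.05 that did not pass. SERPINB2, an inhibitor of plasminogen activators, went from 0.244, 0.223 and 0.322 CPM to 17.5, 24.3 and 14.7 CPM (6.14 ± 0.20, adjusted p = 2.34e-06). Here animal 2 had the highest hour 8 value, unlike in the chemokine and interferon genes.

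F3, the tissue factor that starts coagulation, rose by 2.51 ± 0.07 on the log2 scale. PLAUR, the urokinase receptor, rose by 1.95 ± 0.06 and SERPINE2, a protease inhibitor, by 1.53 ± 0.12. Matrix enzymes and inhibitors that were not called included MMP2, which changed by 0.14, and TIMP1 (0.24).

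Of 32 tested matrix genes 1 rose, a share near the 2.15% of all genes, none fell, and the median log2 change was 0.08. HAS2 makes hyaluronan, and its transcripts went from 0.81, 0.67 and 0.683 CPM to 21.3, 11.4 and 15.8 CPM (4.47 ± 0.14, adjusted p = 2.04e-06). The fibrillar collagen genes COL3A1 and COL1A2 changed by 0.24 ± 0.06 and 0.20 ± 0.06. COL1A1 was uneven among animals: it was at 20696, 26099 and 22489 CPM at hour 0 and 25437, 8092 and 22853 CPM at hour 8. Only animal 2 was much lower at hour 8, the SE was accordingly large (-0.43 ± 0.70) and the gene was not called. Without animal 2 the log2 change of COL1A1 was 0.18, of the opposite sign.

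TGM3, a transglutaminase known from the outer layers of the epidermis, was not in any list and was among the largest rises. It was at 0.41, 0.512 and 0.271 CPM at hour 0 and 42, 16.4 and 43.8 CPM at hour 8 (6.36 ± 0.33, adjusted p = 1.08e-05). The summed keratinocyte markers were at 2.14 to 3.02 CPM at hour 0 and 1.23 to 3.05 CPM at hour 8, with KRT1 at 0.

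**Figure D3:**
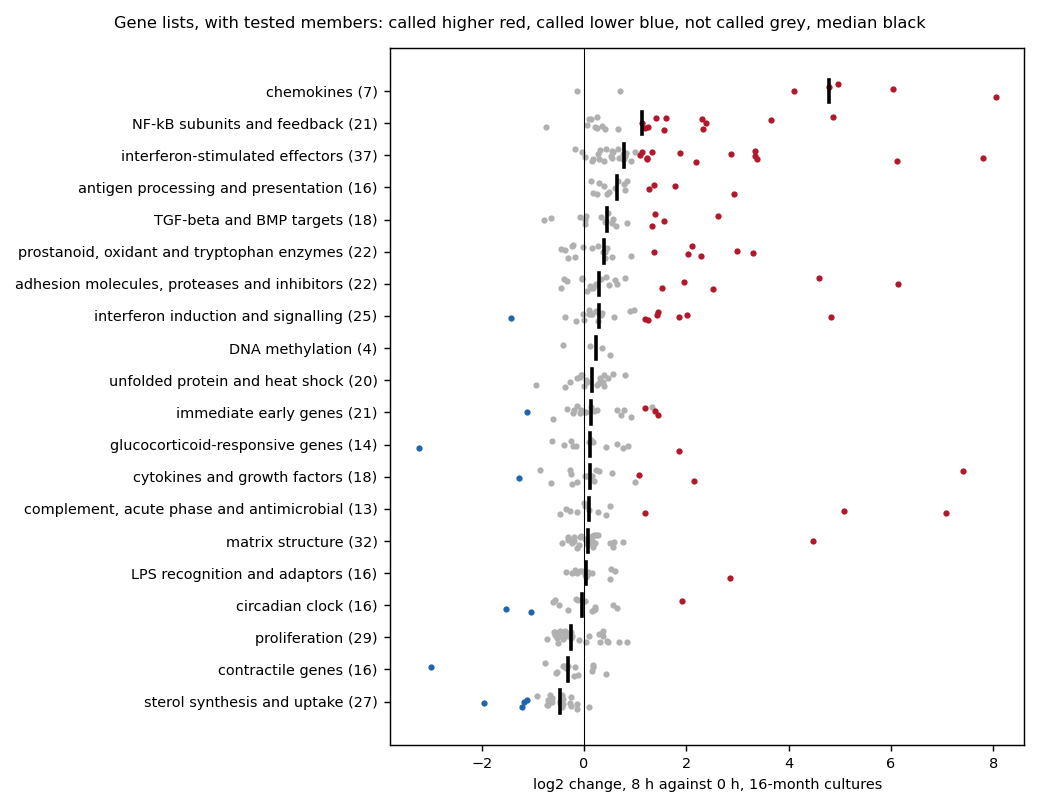
Log2 change at hour 8 in 16-month cultures (horizontal axis) of every tested member of 20 gene lists (rows, number tested in parentheses), where a point is a gene, red is called higher, blue called lower and grey not called, and the black bar is the list median. Medians run from -0.47 for sterol synthesis and uptake to 4.79 for chemokines, and the lists with more than 1 blue point are those of sterol synthesis (4) and the clock (2).

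Most tested genes of sterol synthesis and uptake were lower at hour 8, mainly by under 2-fold. Of the 27 tested 4 fell and none rose, against 1.22% of all genes that fell. A further 20 were lower past the adjusted p at under 2-fold, where 26.9% of all genes were lower past it at any fold. The median log2 change was -0.47. INSIG1, which retains the sterol-sensing transcription factors in the endoplasmic reticulum and is their target, went from 67, 58.6 and 56.9 CPM to 15.3, 15.7 and 15.9 CPM. The 3 animals were almost identical at hour 8, and the log2 change was -1.95 ± 0.08 (adjusted p = 7.04e-06).

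HMGCS1, an early enzyme of the pathway, went from 367, 323 and 301 CPM to 147, 131 and 149.7 CPM (-1.21 ± 0.08). FDFT1, which makes squalene, and SREBF1, which encodes a sterol regulatory factor, changed by -1.17 ± 0.06 and -1.12 ± 0.07. The squalene epoxidase gene SQLE changed by -0.92, past the adjusted p and under 2-fold. SCD, a fatty acid desaturase, overlapped between the hours and had a log2 change of -0.14 ± 0.11.

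Of 16 tested contractile genes 1 fell, where 1.22% of all genes did, and 10 more were lower past the adjusted p at under 2-fold, where 26.9% of all genes were lower past it at any fold, with a median log2 change of -0.32. LMCD1 (chromosome 22, 17961210 to 18018234), a LIM domain protein that acts on transcription in muscle, was at 59.2, 40.7 and 48.4 CPM at hour 0 and 5.01, 6.83 and 6.6 CPM at hour 8. It fell in all 3 animals, with a log2 change of -3.00 ± 0.16 (adjusted p = 1.35e-05). Smooth muscle actin (ACTA2) was at 3447, 4987 and 3677 CPM and 2401, 4549 and 3043 CPM, with a log2 change of -0.31 ± 0.06, and the contractile protein genes TAGLN and CALD1 changed by 0.18 and -0.18.

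KLF15, a transcription factor induced by glucocorticoids, had the largest fall of the called genes. It was at 2.24, 2.76 and 1.83 CPM before and 0.137, 0.477 and 0.164 CPM after LPS (-3.23 ± 0.28, adjusted p = 7.53e-05). Of the 14 tested genes of the glucocorticoid list this was the fall, and ANGPTL4, an inhibitor of lipoprotein lipase, was the rise (1.85 ± 0.12). The receptor gene NR3C1 changed by 0.43 and TXNIP by 0.64, both past the adjusted p and under 2-fold.

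Of 16 tested clock genes 1 rose and 2 fell, against 2.15% and 1.22% of all genes. ARNTL (BMAL1), an activator of the circadian clock, went from 15.9, 12.6 and 14.6 CPM to 56.8, 42.5 and 64.6 CPM (1.92 ± 0.13). DBP, an output factor of the clock, went from 6.87, 3.74 and 5.09 CPM to 2.02, 1.52 and 1.79 CPM (-1.53 ± 0.11), and C3H1orf51 (CIART), a repressor of the clock, changed by -1.03 ± 0.11. Without animal 1 the log2 change of C3H1orf51 was -0.99, just under 2-fold. Since hour 0 and hour 8 also differ in clock time and there is no culture without LPS at hour 8, LPS and time cannot be told apart here.

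HDAC9 (chromosome 4, 27066696 to 27268346), a class IIa histone deacetylase, was at 4.05, 8.06 and 4.47 CPM at hour 0 and 0.526, 1.6 and 0.926 CPM at hour 8. Every hour 8 value lay below every hour 0 value, and the log2 change was -2.49 ± 0.14 (adjusted p = 1.55e-05). The kinase gene PAK6, the glutamate receptor gene GRIK5 and the melanocortin accessory protein gene MRAP2 fell, with log2 changes of -2.24, -2.20 and -2.08. PIK3IP1, an inhibitor of PI3 kinase, went from 16, 11.1 and 11.2 CPM to 3.91, 2.91 and 2.4 CPM (-2.05 ± 0.20). USP43, a deubiquitinase, was at 2.03, 5.57 and 2.76 CPM and 0.116, 2.21 and 0.0896 CPM. Its groups overlapped because animal 2 was high at both hours, and its log2 change of -2.63 ± 0.51 was called only with the culture as a block. ARVCF, of the catenin family, changed by -2.30 ± 0.33, in a window that overlaps LOC100848367 and another gene window.

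Early response genes were mixed at hour 8. Of 21 tested immediate early genes 3 rose and 1 fell, with a median log2 change of 0.14. FOSL1, an AP-1 subunit, rose by 1.44 ± 0.05 on the log2 scale and the nuclear receptor genes NR4A2 and NR4A3 by 1.38 ± 0.10 and 1.20 ± 0.16. Without animal 1 the change of NR4A3 was 0.96, under 2-fold. JUND fell with a log2 change of -1.12 ± 0.09, while FOSL2, KLF4 and ZFP36 changed by -0.34, 0.00 and -0.21 and were not called.

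Of 18 tested TGF-beta and BMP target genes 4 rose, with a median log2 change of 0.45. ID1, an inhibitor of differentiation factors and a BMP target, went from 11.3, 5.08 and 13.5 CPM to 65.4, 43.1 and 65.8 CPM (2.62 ± 0.13). SMAD7, the inhibitory SMAD, and SKIL, a SMAD corepressor, rose by 1.34 ± 0.10 and 1.39 ± 0.15. TGFBI, an extracellular adhesion protein, was at 4.58, 14.9 and 5.35 CPM and 13, 49.6 and 14.2 CPM (1.56 ± 0.06). For TGFBI animal 2 was above the others at both hours, so that the groups overlapped while every animal rose. CTGF and LTBP2 changed by -0.07 and 0.02.

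None of the 29 tested proliferation genes was called, which is near the 3.37% of all genes. Of these, 15 were lower and 8 higher past the adjusted p at under 2-fold, where 26.9% and 26.2% of all genes passed at any fold, and the median log2 change was -0.26. MKI67 and TOP2A, which mark cycling cells, changed by -0.48 ± 0.11 and -0.50 ± 0.12, and RRM2, of nucleotide synthesis, by 0.37 ± 0.14. None of the 20 tested genes of the unfolded protein and heat shock responses was called either, with a median of 0.16 and HSPA5, the endoplasmic reticulum chaperone BiP, at 0.79 ± 0.08. Of the DNA methylation genes 4 could be tested and none was called: DNMT1, the maintenance methyltransferase, changed by 0.36 ± 0.05 and its partner UHRF1 by 0.52 ± 0.10.

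Genes nearly silent at hour 0 were partly outside the test, since 5-month libraries counted in the filter. Of the 279 rises 26 were under 1 CPM in all 3 libraries at hour 0. A fit over the 6 libraries of 16-month cultures alone tested 187 further genes. These genes entered through the hour at which they were high, and are given as values. CCL20, a chemokine for dendritic and Th17 cells, had 0 reads at hour 0 and 5.65, 1.43 and 2.67 CPM at hour 8, at least 278-fold higher than 3 reads over the group. CX3CL1 (fractalkine) likewise had 0 reads and then 3.04, 1.27 and 2.43 CPM, at least 185-fold. Without animal 1 these bounds were 102-fold and 92-fold, and without animal 3 that of CX3CL1 was 123-fold.

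The cytokine gene IL1A had 3 reads at hour 0 and 387 reads at hour 8, a pooled ratio of 129-fold, with a 95% interval of 43.8 to 629. Among antiviral genes, MX2 had 7 reads and then 1316 (188-fold, with a 95% interval of 91 to 469), RSAD2 (viperin) 2 and then 562 (281-fold, with a 95% interval of 77.5 to 2327) and the nucleic acid sensor ZBP1 9 and then 954 (106-fold, with a 95% interval of 55.6 to 233). These intervals cover counting error only. Of the 9 hour 0 reads of ZBP1 8 were in animal 1, and without it the ratio was 363-fold, with a 95% interval of 64.7 to 14370. Without animal 1 RSAD2 had 0 reads at hour 0 and was at least 73.4-fold higher, and without animal 2 the ratio of MX2 was 289-fold. In MX2, RSAD2 and ZBP1 animal 1 was highest and animal 2 lowest at hour 8, as in MX1 and ISG15. In the opposite direction, CDKN1C, an inhibitor of the cell cycle, was at 1.8, 1.54 and 1.5 CPM at hour 0 and 0.0632, 0.196 and 0.105 CPM at hour 8, and MLXIPL, a glucose-sensing transcription factor, was at 1.19, 2.35 and 1.38 CPM and 0.253, 0.269 and 0.239 CPM. NOS2 was carried mainly by animal 1, at 3.43, 0.611 and 0.0896 CPM at hour 8, and CSF3 likewise, at 1.56, 0.0855 and 0.194 CPM.

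The 3 animals gave similar lists of changes but not the same levels. Across the 12972 tested genes the log2 changes of pairs of animals correlated with r = 0.802, 0.833 and 0.805, given as a description over genes that share libraries. Among the 279 rises the value at hour 8 was lowest in animal 2 for 158 genes, in animal 1 for 82 and in animal 3 for 39. Lists differed in this. Animal 2 was lowest at hour 8 for 12 of 13 called interferon-stimulated effectors and 10 of 11 called NF-kB genes. Animal 1 was highest for all 13 and all 11, and for 144 of all 279 rises. The 5 called chemokines, 4 called antigen processing genes and 3 called complement genes all had animal 1 highest and animal 2 lowest.

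The median log2 change of the 13 called effectors was 2.74 in animal 1, 1.46 in animal 2 and 2.27 in animal 3. At hour 0 animal 2 was the lowest for 9 of the 13, and for 7156 of all 12972 tested genes. The called genes of adhesion, proteases and inhibitors did not follow this order, as animal 2 was lowest for 1 of 5, nor did the 3 called cytokines and growth factors, of which animal 2 was lowest for 1 and highest for 2.

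Hour 2 libraries of the same cultures show which of these changes had begun earlier. The hour 2 library of animal 3 stood apart: the SD of its log2 deviations from the median library was 1.37, against 0.322 to 0.429 in the other 16-month libraries, and its mitochondrial share of counts was 1.32%, against 2.36% to 2.63%. Times are therefore given for animals 1 and 2, and then for all 3. Hour 2 and hour 8 were both set against the same hour 0 libraries.

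Of the 11 called NF-kB genes 9 were higher at hour 2 than at hour 8 in animals 1 and 2 (11 of 11 with animal 3), with a median of 17.1-fold over hour 0 at hour 2 and 3.19-fold at hour 8 (16.6-fold and 2.96-fold with animal 3). NFKBIZ was at 436, 185 and 58.9 CPM at hour 2 and 33.2, 19.5 and 29.3 CPM at hour 8. PTGS2, at 451, 299 and 78.1 CPM at hour 2, and F3, at 268, 173 and 69.4 CPM, were also past their highest measured point at hour 8. None of the 13 called interferon-stimulated effectors was higher at hour 2 than at hour 8, with or without animal 3. Their median was 0.99 of hour 0 at hour 2 and 4.59-fold at hour 8 (0.856 and 4.66-fold with animal 3), and 3 of the 13 were at least 2-fold over hour 0 at hour 2. In animals 1 and 2 these were ISG15, at 0.321, 0.121 and 2.77 CPM at hour 2, CMPK2, at 2.11, 1.63 and 0.869 CPM, and OAS1, at 2.87, 1.72 and 1.46 CPM. MX1 was at 7.33, 2.54 and 9.85 CPM at hour 2.

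The 5 called chemokines had reached a median of 47.8-fold at hour 2 and stood at 31.4-fold at hour 8 (65.5-fold and 30.8-fold with animal 3), and 2 of the 5 were higher at hour 2 (3 with animal 3). CXCL6 was lower at hour 2, with 273, 149 and 57.4 CPM, than at hour 8 in all 3 animals, and CCL2 was higher at hour 2, with 886, 314 and 723 CPM. All 4 called sterol genes were higher at hour 2 than at hour 8, as were 149 of all 158 falls (153 with animal 3). INSIG1 was at 159, 112 and 85.3 CPM at hour 2, above its hour 0 values. LMCD1 was also above hour 0 at hour 2, with 85.9, 64 and 100.1 CPM, before the fall at hour 8. Of all 279 rises, 91 had reached at least 2-fold over hour 0 at hour 2 in animals 1 and 2 (95 with animal 3), and 59 were higher at hour 2 than at hour 8 (62 with animal 3).

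**Figure D4:**
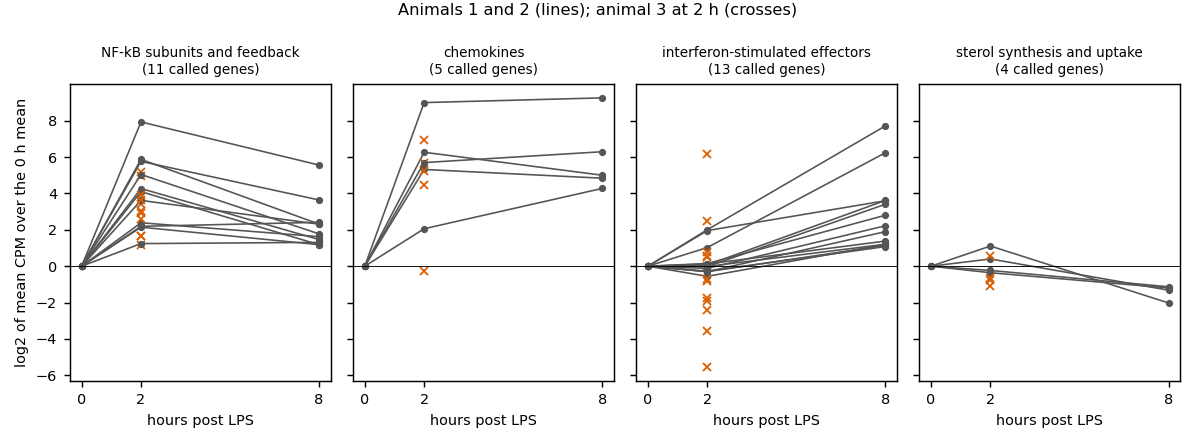
Log2 of mean CPM relative to hour 0 (vertical axis) at 0, 2 and 8 h post-LPS for the called genes of 4 lists, with a line per gene for the mean of animals 1 and 2 and an orange cross for animal 3 at hour 2. Of 11 NF-kB genes 9 are higher at hour 2 than at hour 8, none of 13 interferon-stimulated effectors is, and the crosses of the animal 3 library scatter widely.

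The 5-month cultures of the same animals were the closest comparison. At hour 8 they had 205 called genes (1.58% of those tested), of which 150 were also called in 16-month cultures, all in the same direction. That is 73.2% of the 5-month calls and 34.3% of the 16-month calls. An interaction term of age and hour tested whether the responses differed. It called 35 genes (0.27%), of which 24 (0.185%) were more positive and 11 (0.0848%) more negative in 16-month cultures. The number of calls changed with the cultures included and with the block. Leaving out 1 culture at a time gave 2, 93 and 2 calls without animal 1, 2 or 3 of the 16-month cultures, and 1, 8 and 3 without animal 1, 2 or 3 of the 5-month cultures. None was called without the culture block, where 1087 genes had an unadjusted p under 0.05.

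None of the 7 tested chemokine genes was called for the difference, which at 0.27% of all genes says little about so few. Their median log2 change was 4.64 in 5-month and 4.79 in 16-month cultures. IL8 changed by 7.92 ± 0.37 in 5-month and 8.05 ± 0.32 in 16-month cultures on the log2 scale, a difference of 0.12 ± 0.81 (adjusted p = 0.954). By animal, with 0.1 CPM added, the changes were 8.66, 8.74 and 6.79 in 16-month and 7.14, 7.32 and 7.11 in 5-month cultures. Animal 3 of the 16-month cultures had the highest hour 0 value, 1.13 CPM. CCL2 changed by 4.79 ± 0.10 in 5-month cultures, a difference of 0.00 ± 0.11. CCL5 and CXCL6 changed by 4.86 ± 0.33 and 3.22 ± 0.18 in 5-month cultures and differed by 1.19 ± 0.50 and 0.90 ± 0.23 (adjusted p = 0.247 and 0.0979). IL8 was at 39.5, 32.1 and 37.4 CPM in the 5-month libraries at hour 8, below all 16-month libraries of that hour. At hour 0 it was at 0.181, 0.102 and 0.17 CPM there. INSIG1 and KLF15 changed by -1.90 ± 0.08 and -2.73 ± 0.27 in 5-month cultures, and neither was called for the difference. The 27 tested sterol genes had a median log2 change of -0.70 in 5-month and -0.47 in 16-month cultures, with 8 and 4 called lower. Of the 27 changes 22 were more positive at 16 months, and none was called for the difference.

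The median log2 change of the 37 tested effectors was 0.23 in 5-month and 0.77 in 16-month cultures. Of the 37 changes 36 were more positive at 16 months, where 6607 of the 12972 tested genes were so. So were 14 of 16 antigen processing genes, 20 of 25 interferon signalling genes and 261 of the 279 genes called higher at 16 months. Of the 37, 5 were called for the difference: OAS1, BST2, MX1, CMPK2 and EPSTI1. MX1 was at 6.72, 1.75 and 7.37 CPM at hour 0 and 16.1, 4.39 and 13 CPM at hour 8 in 5-month cultures, a log2 change of 1.09 ± 0.23. The difference was 2.26 ± 0.33 (adjusted p = 0.0328). OAS1 changed by 3.12 ± 0.25 in 5-month cultures and BST2 by 1.02 ± 0.23. ISG15, with 4.67 ± 0.36 in 5-month cultures, differed by 3.14 ± 0.73 and was not called (adjusted p = 0.0743). Of the 6 fits that left out a culture, MX1 and BST2 were called for the difference in 1, the fit without animal 2 of the 16-month cultures, and OAS1 in 2. The log2 difference of MX1 ran from 1.90 to 2.56 over these fits and its adjusted p (edgeR) from 0.00573 to 0.142.

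IFIH1 and USP18 of the signalling list, PSMB8 of antigen processing, C3 and CFB of complement, PTGS1, SERPINB2 and HAS2 were also called for a more positive change in 16-month cultures. CFB was at 68.1, 16.6 and 42.7 CPM at hour 8 in 5-month cultures, from 1.04, 0.211 and 0.896 CPM at hour 0 (5.86 ± 0.13). C3 changed by -0.11 ± 0.16 and PTGS1 by 1.63 ± 0.13 there. TGM3 went from 0.194, 0.274 and 0.161 CPM to 2.0, 1.33 and 1.07 CPM at hour 8 in 5-month cultures. SERPINB2 went from 1.21, 0.657 and 1.48 CPM to 10.1, 4.86 and 17.1 CPM there. Its hour 0 values were above those of 16-month cultures (0.244, 0.223 and 0.322 CPM), and its hour 8 values overlapped between the ages.

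HDAC9 differed in the other direction. Its 5-month libraries had 3.94, 9.87 and 3.83 CPM at hour 0 and 3.77, 8.89 and 4.65 CPM at hour 8, a log2 change of 0.01 ± 0.12. The difference was -2.50 ± 0.19 (adjusted p = 0.0121), and it was called whichever of the 6 cultures was left out. LMCD1 changed by -1.57 ± 0.15 in 5-month cultures, and GRIK5 by -0.40 ± 0.18. ACAN, which encodes the proteoglycan aggrecan, was level in 16-month cultures with 64.2, 21.1 and 54.3 CPM at hour 0 and 53, 21.2 and 49.2 CPM at hour 8. The 5-month libraries went from 0.791, 0.235 and 0.941 CPM to 3.05, 0.398 and 3.92 CPM (1.81 ± 0.15), a difference of -1.95 ± 0.18 (adjusted p = 0.0202). Over the fits without 1 culture ACAN was called in 2 of 6, with an adjusted p (edgeR) up to 0.0992, and LMCD1 and GRIK5 in 1 of 6, with an adjusted p up to 0.14 and 0.142.

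**Figure D5:**
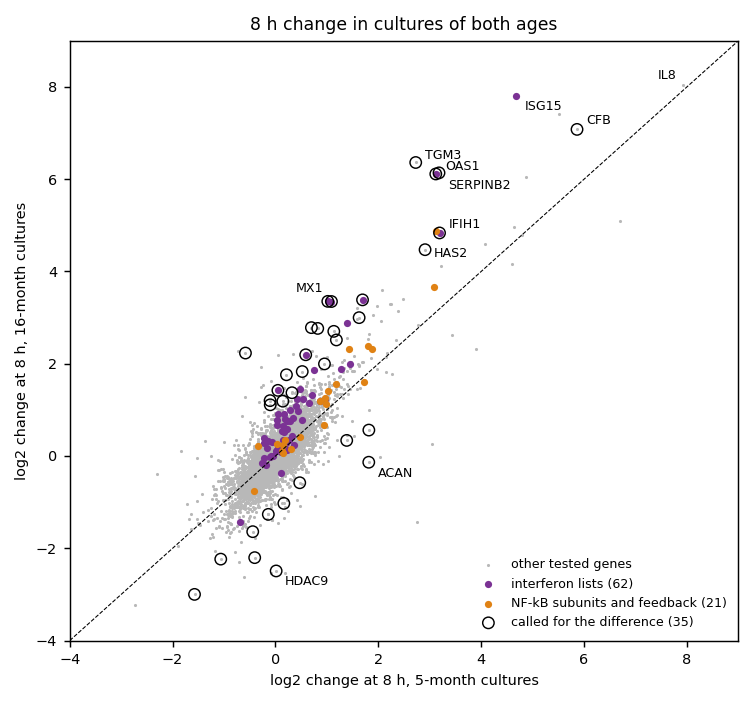
Log2 change at hour 8 in 16-month cultures (vertical axis) against 5-month cultures (horizontal axis) for all tested genes (grey), the 62 tested genes of the 2 interferon lists (purple), the 21 NF-kB genes (orange) and the 35 genes called for the difference (circled), with a dashed line of equal change. Purple points lie mostly above the line, IL8 lies near it, and HDAC9 lies below it at -2.49 against 0.01.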

How the data were processed

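RNA-seq libraries (Illumina TruSeq version 2, which keeps no strand) were deposited as tables of raw read counts per window, 1 table for each library. The authors made the counts with NextGENe 2.3.4 on the UMD 3.1 bovine assembly after a quality filter. Each table has 59846 windows, of which 27550 span a gene with its introns, and 3905 gene windows (14.2%) overlap another. With 1.54 to 1.76 counts for each matched read, some reads were counted in several windows. Gene names are those of the files, and 19566 of 27371 symbols were found in the ARS-UCD2.0 annotation, which served for names only. All files were mapped to samples by the labels.

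From these counts, genes with at least 1 CPM in 6 of 12 libraries (0 and 8 h, both ages) entered edgeR 4.0.16 (R 4.3.3, quasi-likelihood test, TMM factors, two-sided, Benjamini-Hochberg adjustment). The design had each culture as a block and an 8 h term for each age, and the difference between ages was the contrast of these terms. The pairing comes from the animal number in the labels. Deviations of the 0 h and 8 h libraries of the same 16-month culture correlated across genes with 0.523, 0.735 and 0.457, while animals 1 and 3 also correlated with each other (0.336 and 0.296). Same-hour libraries differed by more than sampling noise in every pair, so all were counted as separate. The SE of a log2 change is its absolute value divided by the square root of the F statistic of its test. It was taken for each contrast on its own, so the SE of a difference need not follow from those of the ages.

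Fold bounds take 3 reads for a group with 0, and 95% intervals of pooled ratios are exact, covering counting error only. On simulated counts, 196 of the genes fitted were changed 4-fold, alike in every animal. The test recovered 100% for the 16-month response and 99.5% for the difference between ages. It called 1 and 2 unchanged genes among the 12877 genes fitted. Smaller changes, or changes that vary between animals, were not simulated, and 215 of the 279 rises and 148 of the 158 falls were 2- to 4-fold. Named genes were the 15 largest rises and 10 largest falls with a mean above 1 CPM, 6 genes with RT-PCR measurements in the study, up to 5 called and 3 uncalled members of each list, and the 6 largest positive and 4 largest negative differences between ages. Genes named beyond this rule were chosen after their values were seen. Some genes that the rule named are not reported here, and remain in the counts and medians of their lists. The members, the 20 pathway lists and the 8 marker lists were chosen with earlier results of these data known. Alternatives were other size factors, filters, tests (likelihood ratio, DESeq2 1.42.0, limma-voom with limma 3.58.1, robust prior), blocks, sample sets and overlapping windows left out. Windows between genes were used only in the closing section.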

Additional observations from a re-analysis of the deposited data

Results flagged for a closer look

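The change at 8 h differed between 16-month and 5-month cultures by the test of the interaction for 20 genes of the pathway lists or of the rule for named genes. Differences are log2 values, 16-month minus 5-month. Those above 2 were TGM3 (3.63), OAS1 (3.00), SERPINB2 (2.96), C26H10orf131 (2.81), BST2 (2.33) and MX1 (2.26). C26H10orf131 had low counts, at 0.444, 0.354 and 0.49 CPM and 1.87, 1.85 and 2.33 CPM in 16-month cultures. Further interferon-stimulated or signalling genes were CMPK2 (1.69), IFIH1 (1.64), EPSTI1 (1.61) and USP18 (1.38). The remaining positive differences were those of HAS2 (1.56), PTGS1 (1.37), C3 (1.30), CFB (1.22) and PSMB8 (1.05). Negative differences were those of PAK6 (-1.17), LMCD1 (-1.43), GRIK5 (-1.80), ACAN (-1.95) and HDAC9 (-2.50). CSPG4, of the pericyte and smooth muscle marker list, was also called for the difference (-1.05).

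Windows between genes also carried signal. Of 6291 such windows tested, 140 rose (2.23%) and 71 fell (1.13%) at 8 h in 16-month cultures. Of the 211, 60 higher and 43 lower ones overlapped no gene window and had no called neighbour. The 5 largest rises among these were as follows, in UMD 3.1 coordinates. A window on chromosome 16 (55306136 to 55410365), between KDM5B and PDPN, changed by 2.61 on the log2 scale, from a mean of 2.08 to 10.4 CPM. Its neighbour PDPN lay under the filter and had 30 reads at 0 h and 1159 at 8 h. A window on chromosome 5 (115608937 to 115651722), between PARVG and KIAA1644, changed by 2.26, and one on chromosome 29 (44669338 to 44671367), between FIBP and CCDC85B, by 2.18. A window on chromosome 19 (53965181 to 53978215), between LOC100847654 and C1QTNF1, changed by 2.14. A window on chromosome X (99936413 to 100070404), between MIR223 and MSN, changed by 2.04. The largest falls were -2.92 on chromosome 10 (35808330 to 35856696), between SRP14 and BMF, and -2.29 on chromosome 16 (41979917 to 41992990), between LOC529424 and LOC100848120.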

How the results depend on the processing

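Depth limited genes with few reads at 0 h, and all p-values rest on 3 animals. The 437 calls in 16-month cultures ranged from 412 to 507 when 1 culture was left out, and 318 of them (214 higher, 104 lower) were called whichever 16-month animal was left out. Without a filter on low counts 781 genes were called, 432 of them among the 437, and with at least 1 CPM in every library 290, of which 287 were shared. Without a minimum fold change 6891 passed. The other alternatives gave 311 to 494 calls, with 378 without the replicate block, which the main fit includes because the labels pair the libraries by animal.

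The 35 calls for the difference between ages were less stable. They ranged from 1 to 93 when 1 culture was left out, and 0 were called without the replicate block (1087 genes at an unadjusted p under 0.05) and 0 in a fit of all 18 libraries (364 genes), which includes the 2 h library that stood apart. Without a filter 57 were called, with the likelihood-ratio test 77, with DESeq2 68 and without a minimum fold change 179. The cause of these shifts was not tested.

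Of 2508 values of named genes under alternatives, 2416 kept their direction and call, 78 lost the call, 1 gained it and 13 turned sign. The sign changes were all in genes that were not called. Over the fits that left out 1 culture, TLR4 ranged from -0.0127 to 0.0963 and COL1A1 from -0.852 to 0.181. Over the same fits LGALS3BP ranged from -0.0579 to 0.0898, BHLHE40 from -0.0225 to 0.0546, CTGF from -0.178 to 0.0439, LTBP2 from -0.0428 to 0.0472 and KLF4 from -0.0442 to 0.0491. With upper-quartile factors LGALS3BP was at -0.0135, BHLHE40 at -0.00534 and LTBP2 at -0.00881, and without a filter LGALS3BP was at -0.0042. Among the 6 largest positive and 4 largest negative differences between ages, that of TGM3 was called in 1, that of C26H10orf131 in 2 (adjusted p up to 0.13) and that of SERPINB2 in 4 of the 6 fits without 1 culture. The changes of USP43 and TGFBI in 16-month cultures were lost without the replicate block. Leaving out animals for the ratios of genes with few reads at 0 h was chosen after seeing the data.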

Other observations

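The genes below lie outside the lists, were called in 16-month cultures and are named after their values were seen. OLR1, a scavenger receptor for oxidised LDL, changed by 3.05 ± 0.21 on the log2 scale (SE), and CYP7B1, an oxysterol hydroxylase, by 3.25 ± 0.25. CYP3A4, a drug and steroid hydroxylase, changed by 2.97 ± 0.30, in a window that overlaps another gene window. RND1, a small GTPase that loosens cell adhesion, changed by 4.15 ± 0.26, OCLN, of tight junctions, by 3.41 ± 0.58 and the phosphodiesterase gene PDE4B by 3.15 ± 0.16, also in an overlapping window. In 5-month cultures the same 6 genes changed by 1.90, 1.98, 1.59, 4.59, 2.48 and 2.38 in that order. RND1 was the only one of the 6 with a larger value in 5-month cultures, and none of the 6 was called for the difference.

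The window of chromosome 6, 90695494 to 90824841 on the files' map, which is named CXCL2, runs over a stretch counted between genes (chromosome 6, 90709881 to 90842884). That stretch was at 10.1, 3.85 and 9.93 CPM at 0 h and 188, 70.1 and 154 CPM at 8 h in animals 1, 2 and 3. Animal 2 was lowest at both hours there, as in IL8, CXCL6 and CXCL2.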
